A study of Mus musculus with 6 samples.

Results

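The 70 gene rows whose symbol begins with Defa or Defb, the alpha and beta defensin families, were described in mouse intestinal crypts. They were taken by symbol from the 24736 rows of the deposited table, and 27 were Defa rows and 43 were Defb rows. RNA sequencing had been performed on crypt epithelium from 3 wild-type (WT) mice and 3 mice labelled as lacking Mtg16, a transcriptional co-repressor whose gene symbol is Cbfa2t3. All were untreated males aged 12 weeks, each mouse gave 1 library, and crypts came from the whole length of the gut after EDTA. The labels call the knockout CRISPR-induced, whereas the methods describe donated Mtg16-/- animals. This difference was not resolved, the strain was not given in the sources used here, and no tissue-restricted driver was named for the knockout. The value of each gene is its TPM, an abundance scaled for transcript length that sums to the same total in every library, so that levels of different genes can be compared.

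Defensins are small cationic peptides that damage microbial membranes. In the mouse small intestine the alpha defensins, also called cryptdins, are made almost wholly by Paneth cells, the secretory cells at the crypt base, which store them as proforms in granules. The protease matrilysin (Mmp7) cleaves the proforms, and 6 cysteines in the mature peptide pair into disulfide bonds. Beta defensins are made by many other epithelia.

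The targeted transcript did not separate the genotypes. Cbfa2t3 was at 3.67, 6.69 and 4.52 TPM in WT replicates 1 to 3 and at 4.62, 6.43 and 3.23 TPM in the libraries labelled Mtg16-/-, a log2 fold change of -0.06 with a standard error of 0.27 (limma, adjusted p = 0.937). A total transcript level does not show whether a deleted exon is missing, so the labels were not checked by it. WT replicate 1 stood apart, with a summed TPM of 34242 for 10 enterocyte genes against 5964 to 14414 in the other 5 libraries. Values without it are given for some results only, among them the alpha defensin sum. Genes of proximal small intestine, 7 in number, of which 2 (Fabp1 and Lct) are also in the enterocyte list, summed to 5779, 1903 and 2418 TPM in WT and to 1291, 590 and 837 TPM in the libraries labelled Mtg16-/-. A list of 7 colon genes summed to 169.8, 117 and 128 TPM in WT and to 111, 109.7 and 75.6 TPM in the others, also without overlap. Only 4 colon genes were tested, and their log2 fold changes were split, 2 above 0 and 2 below, with a median of -0.07. The colon sum thus does not stand for each of its members. Sums of 7 ileal genes, given below, overlapped between the groups. Because the proximal sums did not overlap, which stretch of gut contributed the crypts and genotype cannot be told apart. All 10 enterocyte genes were also lower in the libraries labelled Mtg16-/-, and the part of enterocytes in the proximal sums was not tested.

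The coding sequences show why single members need care. Of the 27 Defa rows, 25 had a RefSeq position, and the 22 protein-coding ones lay on chromosome 8 between 21025545 and 21735471 (GRCm38.p6), a cluster of 710 kb that is 101 Mb from Cbfa2t3. Among 28 alpha defensin coding sequences of GENCODE M21, 22 of them of Defa rows, 6 pairs were identical letter for letter. Joined where they differed by at most 15% on average, the sequences fell into 4 groups, named here after an abundant member. The Defa20 group held Defa2, Defa20, Defa21, Defa22, Defa32 and Defa33. The Defa24 group held Defa3, Defa17, Defa23 to Defa28, Defa30, Defa31 and Gm15292, and the Defa37 group held Defa5, Defa34 to Defa37 and Gm15293. The Gm7849 group, whose members have 348 coding bases and 11 cysteine codons, held Defa29 as its single Defa row. The last coding exon, which encodes the mature peptide in these genes, is printed for abundant members of each group (GRCm38, cysteine codons in capitals, stop codon left out). Near identity can be seen between close relatives such as Defa21 and Defa22. The groups were not all sharply separate, since coding identity fell to 85.3% within the Defa24 group and reached 86.0% between the Defa24 and Defa37 groups. The Gm7849 group had at most 66.1% coding identity to any other group.
Defa24 (chr8:21735268-21735374, plus strand): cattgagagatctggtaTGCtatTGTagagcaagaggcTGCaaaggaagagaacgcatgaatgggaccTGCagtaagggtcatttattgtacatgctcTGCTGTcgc
Defa17 (chr8:21656532-21656638, plus strand): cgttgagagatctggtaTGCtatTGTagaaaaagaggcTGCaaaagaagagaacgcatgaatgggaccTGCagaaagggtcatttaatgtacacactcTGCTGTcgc
Defa31 (chr8:21192345-21192451, plus strand): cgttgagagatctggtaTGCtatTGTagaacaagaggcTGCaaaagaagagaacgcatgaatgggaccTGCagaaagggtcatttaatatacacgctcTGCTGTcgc
Defa20 (chr8:21510028-21510140, plus strand): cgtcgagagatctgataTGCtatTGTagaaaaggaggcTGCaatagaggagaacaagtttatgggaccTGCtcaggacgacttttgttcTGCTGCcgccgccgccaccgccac
Defa21 (chr8:21026314-21026420, plus strand): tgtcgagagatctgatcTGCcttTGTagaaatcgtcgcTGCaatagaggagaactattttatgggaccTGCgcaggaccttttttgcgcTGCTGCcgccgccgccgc
Defa22 (chr8:21163046-21163152, plus strand): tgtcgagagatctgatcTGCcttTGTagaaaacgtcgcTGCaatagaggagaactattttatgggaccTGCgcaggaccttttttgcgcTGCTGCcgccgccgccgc
Defa37 (chr8:21566147-21566253, plus strand): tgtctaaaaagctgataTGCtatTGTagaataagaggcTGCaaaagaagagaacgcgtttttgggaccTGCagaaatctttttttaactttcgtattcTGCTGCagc
Gm7849 (chr8:21455542-21455717, minus strand): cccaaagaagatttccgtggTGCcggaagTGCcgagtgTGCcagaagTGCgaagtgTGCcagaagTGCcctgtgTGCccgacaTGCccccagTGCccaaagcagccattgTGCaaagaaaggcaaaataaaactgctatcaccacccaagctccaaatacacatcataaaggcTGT

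The exons of Defa21 and Defa22 above are nearly the same, and over their full coding sequences these genes differed by 2 of 279 bases. Defa17 had the same coding sequence as Defa3, Defa20 the same as Defa32, Defa31 the same as Defa23, Defa37 the same as Defa36, and Defa2 the same as Defa33. Among the 18 alpha defensin genes with a mean of at least 100 TPM, a median of 12.0% of a transcript's windows of 50 bases occurred in no other alpha defensin transcript compared, with a range of 0% to 71.9%. How RSEM divided reads between such copies could not be seen in TPM values, so the family sum and the sums over identical copies are firmer measures than a single row.

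Alpha defensin transcripts were more abundant in every library labelled Mtg16-/- than in any WT library. Their summed TPM was 16791, 44269 and 21820 in WT replicates 1 to 3, a mean of 27627 ± 14630 (SD, n = 3). In the libraries labelled Mtg16-/- it was 69303, 51763 and 50309, a mean of 57125 ± 10572 (SD, n = 3). The groups did not overlap, but WT replicate 2 lay far closer to the lowest Mtg16-/- library than to the other WT libraries. The family accounted for 1.68%, 4.43% and 2.18% of all TPM in WT and for 6.93%, 5.18% and 5.03% in the libraries labelled Mtg16-/-. The mean log2 sum was higher by 1.16, and by 0.86 without WT replicate 1 and 1.56 without WT replicate 2. No p-value is given for the sum, because its members were chosen with results known. In RNA from a mixture of crypt cells, more Paneth cells and more RNA per Paneth cell cannot be told apart.

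**Figure D1:**
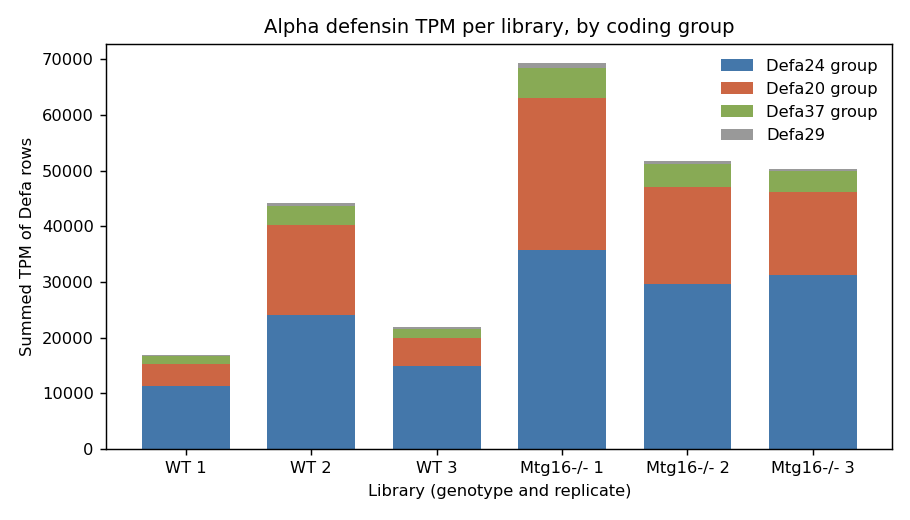
Summed TPM of the Defa rows (vertical axis, from 0) in each of the 6 libraries (horizontal axis), with bars stacked by coding sequence group and a grey part for Defa29 (Defa4 and Defa-ps1, which were in no group, are not drawn). The 3 bars labelled Mtg16-/- reach 50309 to 69303 TPM, above the WT bars at 16791 to 44269 TPM, and the Defa20 group takes a varying part of them.

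No single alpha defensin passed the test. Of 22 Defa rows with a mean of at least 1 TPM, 0 were called by limma at an adjusted p below 0.1, where 0.0326% of the 12268 genes tested were called. At an unadjusted p below 0.05, 15 were higher and 1 was lower in the libraries labelled Mtg16-/-, where 6.53% of all tested genes were higher and 8.05% were lower at that limit. The unadjusted count of 16 dropped to 9 without WT replicate 1 and to 8 without WT replicate 3 or without Mtg16-/- replicate 1. The share of all tested genes at that limit in these smaller fits is not given here, so the drop cannot be called particular to defensins. In 9 of the 22 rows, all libraries labelled Mtg16-/- lay above all WT libraries, as they did in 9.94% of tested genes. The estimated log2 fold change was above 0 in 20 of 22 rows, against 46.4% of tested genes. Its median was 1.05, and -0.03 over all tested genes. With weights for each library, limma called 10 of them, beside 855 genes or 6.97% of those tested. Leaving out WT replicate 2, WT replicate 3 or Mtg16-/- replicate 2 called 1 each time, which was Defa5, Defa4 and Defa25 in turn. Over all tested genes these fits called 4, 4 and 2. Defa5 and Defa25 were higher in the libraries labelled Mtg16-/-, whereas Defa4 was lower. For Defa4 and Defa25 the library left out was one where the gene was listed at 0.

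The abundant members had the same highest library and the same highest WT library. Mean levels reached 100 TPM or more in 15 Defa rows, and the 10 highest lay between 2098 and 8907 TPM. In each of the 15, the log2 fold change lay between 0.82 and 1.58, with adjusted p from 0.235 to 0.407, and 13 had an unadjusted p below 0.05. The highest of all 6 libraries was Mtg16-/- replicate 1 in all 15, and the highest WT library was replicate 2 in all 15. WT replicate 1 was the lowest WT library in 13 of them. Many of these rows have close copies among the others and all come from the same 6 libraries, so they are not 15 separate observations. Together the 6 most abundant rows, Defa24, Defa17, Defa31, Defa30, Defa20 and Defa33, made up 69.7% to 76.7% of the alpha defensin sum in each library.

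**Figure D2:**
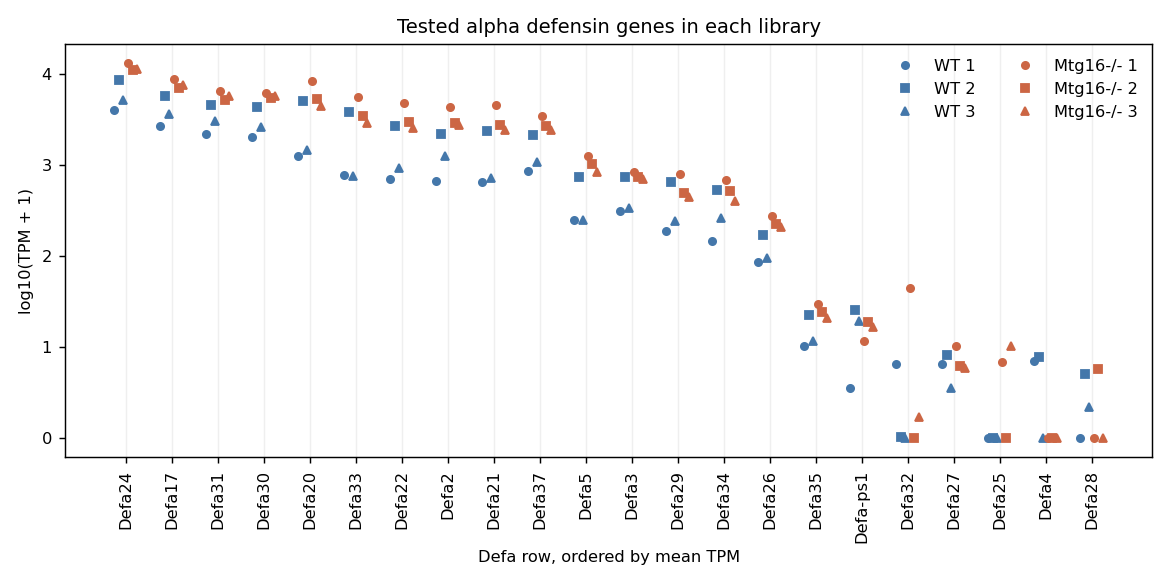
log10(TPM + 1) (vertical axis) of the tested Defa rows, ordered by mean TPM (horizontal axis), with 1 point per library, blue for WT and orange for the libraries labelled Mtg16-/-, and a marker shape per replicate number. Among the 15 rows of at least 100 TPM, the orange circle of Mtg16-/- replicate 1 is always the highest point and the blue square of WT replicate 2 is the highest WT point.

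Defa24 was the most abundant defensin, and 3 genes in the table had a higher mean TPM. Its level was 3996, 8609 and 5171 TPM in WT and 13212, 11129 and 11325 TPM in the libraries labelled Mtg16-/-. The groups did not overlap, and the log2 fold change was 1.08 with a standard error of 0.33 (limma, adjusted p = 0.270). Defa17, a cryptdin of the same coding group, was at 2678, 5636 and 3646 TPM in WT and at 8829, 6995 and 7531 TPM in the libraries labelled Mtg16-/-. The WT values again lay below all others, with a log2 fold change of 1.03 and a standard error of 0.31 (limma, adjusted p = 0.265), and 89 of the tested genes, 0.725%, had a larger one.

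Defa31 and Defa30, also of the Defa24 group, were close to each other in level. Defa31 was at 2159, 4559 and 2997 TPM in WT and at 6430, 5143 and 5740 TPM in those libraries, a log2 fold change of 0.90 (SE 0.30, limma, adjusted p = 0.282). Defa30 was at 2024, 4362 and 2581 TPM in WT and at 6080, 5392 and 5707 TPM in the others, a log2 fold change of 1.01 (SE 0.30, limma, adjusted p = 0.264). In both genes no WT library reached the lowest library labelled Mtg16-/-. Defa26, a low member of the group with a mean of 175 TPM, had the smallest adjusted p of any Defa row, 0.235 (limma), at a log2 fold change of 1.07 (SE 0.26).

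In the Defa20 group, WT replicate 2 lay far above the other WT libraries. Defa20 was at 1252, 5044 and 1464 TPM in WT and at 8268, 5342 and 4424 TPM in the libraries labelled Mtg16-/-, so that WT replicate 2 lay within the range of the latter. Its log2 fold change was 1.47 with a standard error of 0.52 (limma, adjusted p = 0.296). Defa33 was at 777, 3768 and 751 TPM in WT and at 5513, 3429 and 2884 TPM in the others, with a log2 fold change of 1.54 (SE 0.60, limma, adjusted p = 0.312). Here WT replicate 2 exceeded Mtg16-/- replicates 2 and 3. Defa21, the row with the largest log2 fold change among abundant members at 1.58 (SE 0.49, limma, adjusted p = 0.272), was at 657, 2382 and 722 TPM in WT and at 4512, 2764 and 2411 TPM in the libraries labelled Mtg16-/-. Its groups were separated by a margin that was small beside the spread in either of them.

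In the Defa37 group, Defa37 was at 862, 2152 and 1088 TPM in WT and at 3404, 2691 and 2392 TPM in the libraries labelled Mtg16-/-, with no overlap and a log2 fold change of 1.15 (SE 0.34, limma, adjusted p = 0.263). Defa5, which shares 98.6% of its coding bases with Defa37, was at 250, 738 and 247 TPM in WT and at 1246, 1017 and 830 TPM in the others, a log2 fold change of 1.51 (SE 0.41, limma, adjusted p = 0.263). In both, Mtg16-/- replicate 1 was the highest library and WT replicate 2 the highest WT library. Defa29, the Defa row most unlike the rest in sequence, was at 190, 650 and 243 TPM in WT and at 801, 493 and 446 TPM in the libraries labelled Mtg16-/-. WT replicate 2 was the second highest of its 6 libraries, and the log2 fold change was 0.85 (SE 0.44, limma, adjusted p = 0.407), with estimates of 0.50 without WT replicate 1 and 1.38 without WT replicate 2.

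**Figure D3:**
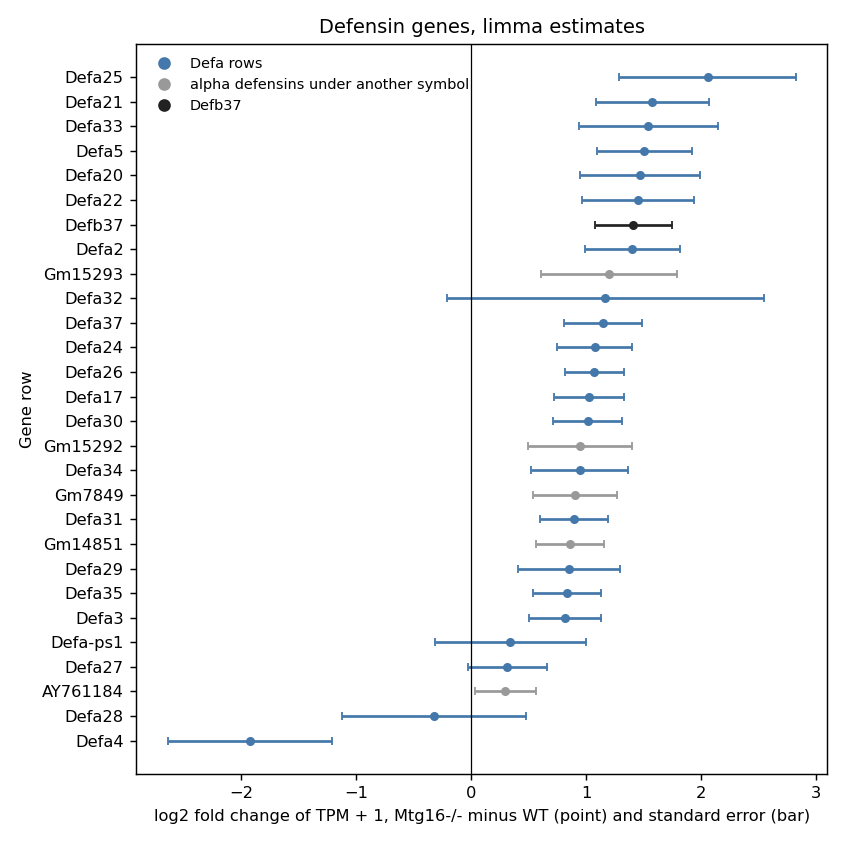
Estimated log2 fold change of TPM + 1, Mtg16-/- minus WT (horizontal axis), with 1 standard error either side, for each tested defensin row (vertical axis), in blue for Defa rows, grey for alpha defensins listed under another symbol and black for Defb37. The 15 Defa rows of at least 100 TPM lie between 0.82 and 1.58, while the widest bars belong to rows of few TPM, and the points of Defa25 and Defa4, listed at 0 throughout one group, depend on the added 1 TPM.

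Copies with the same coding sequence were not listed at the same TPM. How RSEM divided reads between them could not be seen, so these values do not show that the copies differed in expression. Defa17 and Defa3 were the one identical pair outside the Defa20 group with both rows above 100 TPM, and Defa3 was at 309, 742 and 340 TPM in WT and at 833, 730 and 704 TPM in the libraries labelled Mtg16-/-. It took 8.54% to 11.6% of the pair's TPM in WT and 8.55% to 9.45% in the others. Defa2 was at 670, 2179 and 1263 TPM in WT and at 4366, 2851 and 2739 TPM in the libraries labelled Mtg16-/-, and its partner Defa33 took between 37.3% and 63.4% of their sum, both ends of the range being WT libraries. The other pairs were lopsided. Defa32 was at 5.48, 0.04 and 0 TPM in WT and at 43.2, 0.02 and 0.70 TPM in the libraries labelled Mtg16-/-, against a mean of 4299 TPM for Defa20. Defa36 was at 2.83 TPM in WT replicate 1 and listed at 0 elsewhere, against 2098 TPM for Defa37. Defa23 was listed at 0 in every library, against 4505 TPM for Defa31. Summed within each of the 5 pairs of Defa rows, the log2 fold changes ran from 0.90 to 1.47 with adjusted p from 0.263 to 0.295 (limma).

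The upstream sequences of these copies were also alike. RefSeq promoters, 250 bases before to 50 after the start (GRCm38.p6), were at hand for 16 alpha defensins, and those of Defa31 and Defa23, Defa37 and Defa36, Defa21 and Defa22, and Defa2 and Defa20 were identical in pairs. Thus Defa23, listed at 0, and Defa31 had the same letters in both this window and the coding sequence. Promoters of Defa31 and Defa20 are printed as abundant members of separate groups. Capitals mark TATAAA (the TATA box), CTTTGA (the core bound by TCF/LEF factors, which act with beta-catenin in Wnt signalling) and the E-boxes CAGATG and CAGCTG (the kind of site bound by ATOH1, which specifies secretory cells), sought on both strands, so that CTTTGA on the other strand reads TCAAAG. None of these motifs contains another.
Defa31 (chr8:21191323-21191622, plus strand): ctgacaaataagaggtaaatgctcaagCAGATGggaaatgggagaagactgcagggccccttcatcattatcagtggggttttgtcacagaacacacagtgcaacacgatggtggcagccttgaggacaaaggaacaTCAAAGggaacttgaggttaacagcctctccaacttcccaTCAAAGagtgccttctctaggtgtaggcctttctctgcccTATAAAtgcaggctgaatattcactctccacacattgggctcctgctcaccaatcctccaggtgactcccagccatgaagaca
Defa20 (chr8:21509008-21509307, plus strand): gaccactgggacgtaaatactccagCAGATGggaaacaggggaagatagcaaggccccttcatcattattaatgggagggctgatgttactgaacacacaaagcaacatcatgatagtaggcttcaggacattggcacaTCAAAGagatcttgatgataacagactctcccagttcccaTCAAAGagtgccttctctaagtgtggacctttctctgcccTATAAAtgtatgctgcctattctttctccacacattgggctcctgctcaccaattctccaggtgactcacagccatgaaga

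Both printed windows hold the TATA box, the TCF/LEF core and the E-box CAGATG. Over the 16 alpha defensin windows, the TATA box was found in 15, the TCF/LEF core in 13, the E-box CAGATG in 11 and the E-box CAGCTG in 1. Of 32851 promoters of the same length, 13.6% held the TATA box, 16.0% the TCF/LEF core, 17.2% the E-box CAGATG and 16.3% the E-box CAGCTG. Of 29 beta defensin windows, 5, 8, 8 and 5 held them in that order. These genes lie in 1 cluster of close copies, so their shared letters are a description of 1 family.

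The make-up of the family differed between libraries. The Defa20 group made up 24.2%, 36.3% and 23.5% of the alpha defensin sum in WT and 39.6%, 33.6% and 29.8% in the libraries labelled Mtg16-/-. WT replicate 2 lay among the latter, so the groups overlapped. The mean share was 6.33 percentage points higher in the libraries labelled Mtg16-/-. It was higher by 4.44 points without WT replicate 1, 10.5 without WT replicate 2, 4.06 without WT replicate 3 and 3.68 without Mtg16-/- replicate 1. The Defa24 group moved the other way, at 67.0%, 54.4% and 68.0% in WT and 51.5%, 57.2% and 62.1% in the others. The Defa37 group kept to 7.25% to 8.22% in all 6 libraries. No test was made of these shares, and since they add up to a whole, one cannot be higher without another being lower.

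A list of 7 ileal genes had a similar order of libraries. Its summed TPM was 1801, 2457 and 1104 in WT and 2622, 2287 and 1188 in the libraries labelled Mtg16-/-, and the 3 libraries with the highest sums were also the 3 with the largest share of the Defa20 group. All 7 genes were tested, 3 were higher and 4 were lower in the libraries labelled Mtg16-/-, and 0 were called by limma. At an unadjusted p below 0.05, 1 was higher, as were 6.53% of all tested genes. The part of gut region in the make-up of the family was not tested.

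**Figure D4:**
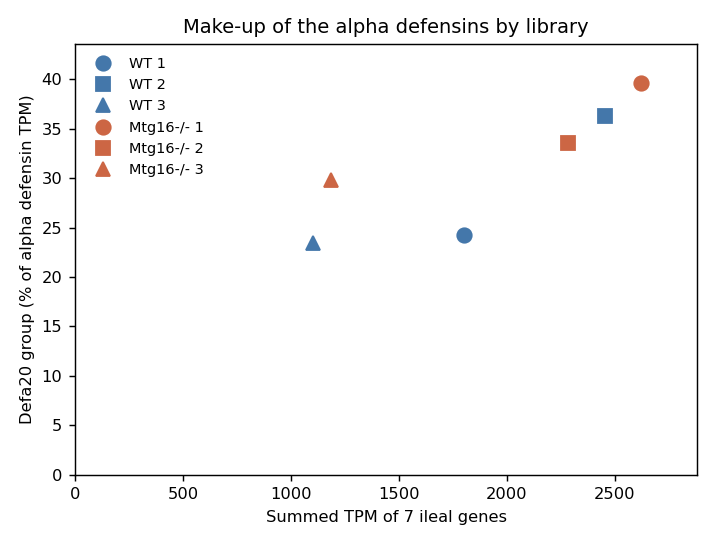
Share of the Defa20 coding group in the alpha defensin TPM, in percent (vertical axis), against the summed TPM of 7 ileal genes (horizontal axis), both from 0, with 1 point per library, blue for WT and orange for the libraries labelled Mtg16-/-. The 3 libraries with the highest ileal sums, 2287 to 2622 TPM, 1 of them WT, have shares of 33.6% to 39.6%, and the other 3 have 23.5% to 29.8%.

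The low members were few and uneven. Between 1 and 100 TPM on average were 7 Defa rows, and 5 were below 1 TPM, of which Defa6, Defa23 and the pseudogenes Defa-ps12 and Defa-ps13 were listed at 0 in every library. For a row with an identical copy, such as Defa23, a listed 0 does not show that the gene was silent. Defa25 was listed at 0 in all WT libraries and at 5.94, 0 and 9.40 TPM in the libraries labelled Mtg16-/- (limma, unadjusted p = 0.028, adjusted p = 0.307). Defa4, which had no RefSeq position, ran against the family, at 6, 6.82 and 0 TPM in WT and listed at 0 in all 3 libraries labelled Mtg16-/- (limma, unadjusted p = 0.028, adjusted p = 0.306). Both genes thus had libraries at 0 in each genotype. Defa28 was at 0, 4.14 and 1.22 TPM in WT and at 0, 4.85 and 0 TPM in the others, with a log2 fold change of -0.32 (SE 0.80, limma, adjusted p = 0.873). Defa27 was at 5.61, 7.21 and 2.57 TPM in WT and at 9.21, 5.21 and 4.86 TPM in the libraries labelled Mtg16-/-, with a log2 fold change of 0.31 (SE 0.34, limma, adjusted p = 0.681). Their groups overlapped, and the sign of both depended on which library was left out.

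Some alpha defensins stood under another symbol. RefSeq names Gm14851, Gm15292, Gm15293, Gm7849 and Gm7861 as defensin genes, and AY761184 shares its coordinates with Defa39. Summed, these 6 rows were at 4168, 10094 and 5716 TPM in WT and at 12472, 10304 and 9786 TPM in the libraries labelled Mtg16-/-, with WT replicate 2 above Mtg16-/- replicate 3. With them, the alpha defensin sum was 20959, 54363 and 27536 TPM in WT and 81775, 62066 and 60095 TPM in the others, and the mean log2 sum was higher by 1.09. Gm7849, at 2148, 5607 and 2886 TPM in WT and 7431, 5762 and 5314 TPM in the libraries labelled Mtg16-/-, had a higher mean than every Defa row but Defa24 and Defa17, while its copy Gm7861, identical in coding sequence and promoter, was listed at 0 throughout. Of the 5 rows tested, 0 were called by limma and 2 were higher at an unadjusted p below 0.05, as were 6.53% of all tested genes.

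AY761184 followed the family least among abundant rows. It was at 823, 1761 and 1129 TPM in WT and at 1401, 1451 and 1491 TPM in the libraries labelled Mtg16-/-, with WT replicate 2 the highest of all and a log2 fold change of 0.30 (SE 0.27, limma, adjusted p = 0.608). Its ratio to Defa24 was 0.206, 0.205 and 0.218 in WT and 0.106, 0.130 and 0.132 in the libraries labelled Mtg16-/-, without overlap. Its 71.6% of unique windows made it one of the members least open to exchange of reads. The ratio was chosen after its values were seen and was not tested.

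Other Paneth cell products were higher in the same libraries. The list held 10 genes, all tested, and all 10 had a log2 fold change above 0, with a median of 0.94. Limma called 0 of them. At an unadjusted p below 0.05, 7 were higher in the libraries labelled Mtg16-/-, as were 6.53% of all tested genes. In 6, all those libraries lay above all WT libraries, against 9.94% of tested genes. Lyz1, the Paneth cell lysozyme, was at 1406, 3304 and 1593 TPM in WT and at 4374, 3389 and 3387 TPM in the libraries labelled Mtg16-/- (log2 fold change 0.92, SE 0.33, limma, adjusted p = 0.297). As for the abundant defensins, Mtg16-/- replicate 1 was the highest library and WT replicate 2 the highest WT library. Pnliprp2, a lipase, was at 29.8, 54.0 and 57.4 TPM in WT and at 169, 147 and 127 TPM in the others (log2 fold change 1.68, SE 0.25, limma, adjusted p = 0.104), and its groups lay far apart. Pnliprp2 and Clps are also pancreatic genes, and 7 acinar genes summed to 48.8, 22.3 and 9.15 TPM in WT and to 15.1, 8.25 and 9.41 TPM in the libraries labelled Mtg16-/-, so that they were highest in WT replicate 1. Mmp7, the protease that activates the proforms, was at 115, 247 and 197 TPM in WT and at 208, 209 and 168 TPM in the libraries labelled Mtg16-/- (log2 fold change 0.12, SE 0.26, limma, adjusted p = 0.847). The values of Mmp7 in the libraries labelled Mtg16-/- lay within the WT range, as did those of Pla2g2a, a secreted phospholipase (log2 fold change 0.12, SE 0.30, limma, adjusted p = 0.874).

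Set against these products, the alpha defensins differed by an amount that depended on the measure and on the libraries kept. The ratio of their sum to the summed TPM of the 10 genes was 6.44, 7.38 and 5.94 in WT and 8.16, 7.80 and 7.45 in the libraries labelled Mtg16-/-, with the highest WT value just below the lowest of the others. As log2 of the sum minus the mean log2(TPM + 1) of the list, the difference was 0.23, with overlap between the groups, and it was -0.03 after quantile normalization. It was 0.45 without WT replicate 2, 0.02 without WT replicate 3 and 0.15 without Mtg16-/- replicate 1, so these 6 libraries left its size undecided.

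**Figure D5:**
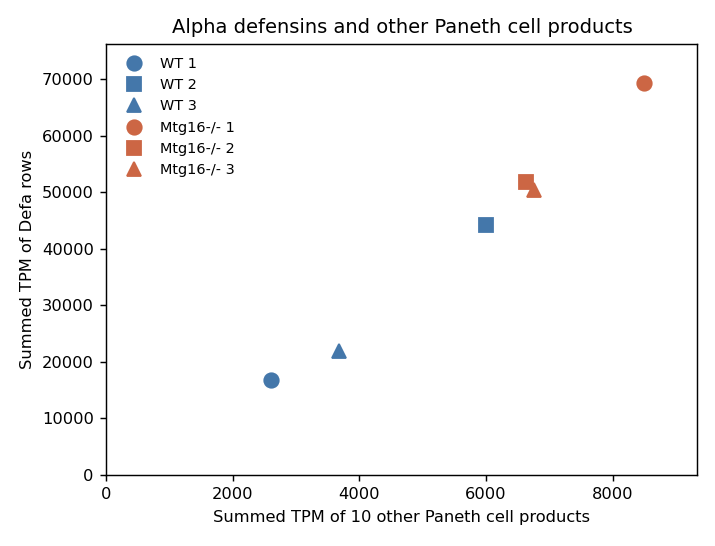
Summed TPM of the Defa rows (vertical axis) against the summed TPM of 10 other Paneth cell products (horizontal axis), both from 0, with 1 point per library, blue for WT and orange for the libraries labelled Mtg16-/-. The points lie close to a line through the origin, at ratios of 5.94 to 8.16, and WT replicate 2 (blue square) is the WT point nearest to the 3 orange ones.

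Of 8 listed genes that fold or cleave secreted proteins, 7 were lower in the libraries labelled Mtg16-/-, and 0 were called by limma. Of the 7, 5 had an unadjusted p below 0.05, where 8.05% of all tested genes were lower at that limit. The 1 listed gene that was not lower was Mmp7, the cleaving protease, with the values given above. Pdia4, a disulfide isomerase of the endoplasmic reticulum, was at 172, 186 and 208 TPM in WT and at 119, 119 and 122 TPM in the libraries labelled Mtg16-/- (log2 fold change -0.64, SE 0.12, limma, adjusted p = 0.165). P4hb, another disulfide isomerase, was at 1692, 995 and 1156 TPM in WT and at 926, 705 and 752 TPM in the others (log2 fold change -0.66, SE 0.23, limma, adjusted p = 0.286). Neither gene overlapped between groups. These genes are used by all secretory cells. A list of 8 goblet cell genes summed to 11902, 10122 and 7337 TPM in WT and to 9238, 6697 and 6602 TPM in the libraries labelled Mtg16-/-, with overlap. Of the goblet genes, 3 were higher and 5 lower in the latter, where 46.4% of all tested genes were higher. At an unadjusted p below 0.05 (limma), 1 goblet gene was higher and 2 were lower, beside 6.53% and 8.05% of all tested genes. Agr2 is in both the goblet and the folding list. The part of other secretory cells in the result was not tested.

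Known regulators of Paneth cells and their granules gave no call in 12 tested genes. Sox9, a Wnt target required for Paneth cells, was the 1 gene with an unadjusted p below 0.05, at 15.8, 25.6 and 30.7 TPM in WT and 36.4, 51.7 and 41.6 TPM in the libraries labelled Mtg16-/- (log2 fold change 0.85, SE 0.24, limma, adjusted p = 0.263). Its groups did not overlap, and 6.53% of all tested genes were higher at that unadjusted limit. Atoh1, the factor that specifies secretory cells, was at 19.1, 23.2 and 18.0 TPM in WT and at 17.3, 18.2 and 15.2 TPM in the others (log2 fold change -0.23, SE 0.14, limma, adjusted p = 0.466), with overlap. Neither gene had the order of libraries seen in the defensins. Nod2, a bacterial sensor, was near the lower limit of the test, at 1.22 to 1.53 TPM in WT and 0.93 to 1.09 TPM in the libraries labelled Mtg16-/-.

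Antimicrobial genes outside the Paneth list did not share the defensins' direction. Of 12 genes, 7 were tested, all 7 had a log2 fold change below 0, and 0 were called by limma or had an unadjusted p below 0.05. Reg3b, a lectin made largely by enterocytes, was at 8751, 6513 and 5426 TPM in WT and at 6099, 3254 and 3979 TPM in the libraries labelled Mtg16-/- (log2 fold change -0.66, SE 0.31, limma, adjusted p = 0.372). Reg3g, a related lectin, was at 5855, 4847 and 3785 TPM in WT and 5115, 2680 and 3359 TPM in the others (log2 fold change -0.41, SE 0.30, limma, adjusted p = 0.532). Both overlapped between groups. Neutrophils, which store other defensins in some species, left almost no signal, since 6 of 7 neutrophil genes, among them S100a8, S100a9 and Camp, were listed at 0 in every library and the sum was at most 0.06 TPM.

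Other cell types were read from their marker lists. Enterocyte genes summed to 34242, 11628 and 14414 TPM in WT and to 11788, 6473 and 5964 TPM in the libraries labelled Mtg16-/-. All 10 were lower there, 7 at an unadjusted p below 0.05 and 0 called by limma. At that unadjusted limit, 8.05% of all tested genes were lower. WT replicate 2 lay just below Mtg16-/- replicate 1, so the enterocyte sums overlapped. Crypt base stem cell genes, 8 in number, summed to 810, 1273 and 1403 TPM in WT and to 1504, 1958 and 1710 TPM in the others, without overlap. TPM is a share of a fixed total, so the parts depend on each other, and the part of these cells in the defensin values was not tested. With the defensin rows left out of the total, the log2 difference of the alpha defensin sum was 1.20. Epithelial markers were well expressed, at 9332 to 12015 TPM for 8 genes, while 8 stromal genes summed to 3.75 to 8.63 TPM and 8 haematopoietic genes to 56.3 to 116 TPM.

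Beta defensins were almost silent. Of the 43 Defb rows, spread over chromosome 8 (24 rows), chromosome 2 (11), chromosome 14 (5) and chromosome 1 (3), 40 were listed at 0 in every library. Their sum was 1.22, 1.67 and 1.85 TPM in WT and 4.04, 4.47 and 2.11 TPM in the libraries labelled Mtg16-/-. The lowest of the latter lay just above the highest WT library, at a level where the number of reads is not known.

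Defb37 was the 1 Defb row with a mean of at least 1 TPM. It was at 0, 0.84 and 0.93 TPM in WT and at 3.86, 3.73 and 1.9 TPM in the libraries labelled Mtg16-/-, without overlap. Its log2 fold change was 1.41 with a standard error of 0.34 (limma, unadjusted p = 0.003, adjusted p = 0.233), and it was not called. Defb1, the beta defensin made constitutively by many epithelia, was at 0, 0.83 and 0.92 TPM in WT and at 0.18, 0.74 and 0.21 TPM in the others. Defb40 was at 1.22 TPM in WT replicate 1 and listed at 0 in the other 5 libraries.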

How the data were processed

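Total RNA (200 ng) from EDTA-isolated crypts (2 mM, 30 min) was depleted of ribosomal RNA, amplified for 14 PCR cycles and sequenced in 6 libraries, 3 per genotype, 1 per mouse. Per the submitters' processing notes, cutadapt 1.9.1, STAR 2.5.2a, RSEM 1.3.0, DESeq2 1.12.3 and build mm10 were used. The authors deposited gene-level TPM values from RSEM, rounded to 2 decimals and summing to 1000000 per library, so depth is unknown and no counting interval or count test is given.

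Here log2(TPM + 1) of the 12268 genes with a mean of at least 1 TPM was fitted by genotype with limma 3.58.1 (R 4.3.3, trended moderation), two-sided, with Benjamini-Hochberg adjustment over all tested genes and calls at an adjusted p below 0.1. Fold changes are on the log2(TPM + 1) scale, which understates changes of low genes. The code was tested on simulated data. Family sums, shares, ratios and list sums are given without a test. With 3 mice against 3, an exact permutation test cannot go below p = 0.1.

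Coding sequences came from GENCODE M21 (GRCm38, the assembly of mm10), and positions, names and promoters from RefSeq (GRCm38.p6). Coding-sequence identity took the place of protein identity. Values per library are given for the 6 most abundant Defa rows, the 3 tested rows with the largest and the 3 with the smallest log2 fold change, the 3 most abundant Defb rows, and rows with the closest or most distant sequence relatives. AY761184, Defa5, Defa26, Defa37 and the genes named from other lists were picked after their values were seen. The members and lists were chosen with earlier results of these data known. Alternatives were another pseudocount, filter, scaling, moderation, library weights, a replicate block, each library left out and, chosen after seeing the data, merging rows of identical coding sequence and the share of the Defa20 group.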

Additional observations from a re-analysis of the deposited data

How the results depend on the processing

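The count of genes called over all tested genes depended strongly on the setting. It was 4 as reported, 0 without a filter on low values, with quantile normalization, with the defensin rows left out of the total, without an intensity trend and at an adjusted p below 0.05, 1 with median-ratio rescaling, 15 with a mean of at least 5 TPM, 20 with robust moderation and 855 with library weights, and 0 to 20 with 1 library left out. Alpha defensins called numbered 0 as reported, 10 with library weights, 14 with a replicate block and 0 to 1 with 1 library left out, and beta defensins called numbered 0 as reported and 1 with library weights or a replicate block. Alpha defensins at an unadjusted p below 0.05 numbered 8 to 16 with 1 library left out. The log2 difference of the beta sum was 0.78 for log2(sum + 1) and 1.16 as a ratio of group means, which adds no pseudocount. Fold changes of opposite sign came in 4 low genes: Defa-ps1 (0.34 as reported) at -0.18 with library weights and -0.54 to 0.88 with 1 library left out (lowest without WT replicate 1); Defa27 (0.31) at -0.035 to 0.57 (lowest without WT replicate 3); Defa28 (-0.32) at 0.15 with library weights and -1.17 to 0.27 with 1 library left out (above 0 without WT replicate 2, and at 0.10 without Mtg16-/- replicate 1 or 3); and Defa32 (1.17) at -0.52 to 2.20 (lowest without Mtg16-/- replicate 1). For 19 of 23 defensin genes no setting tried turned the direction. With 1 library left out, the remaining pair is assumed to vary like the other group. With 1 library left out, the alpha sum difference ranged from 0.86 to 1.56, the beta sum from 0.63 to 1.03, the median alpha fold change from 0.80 to 1.38, the difference to other Paneth cell products from 0.02 to 0.45 and the Defa20 group's share from 3.68 to 10.5 points. The cause of these shifts was not tested.

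Same-numbered mice are not stated to share a litter or day. Centred on its genotype's mean, each library was compared with those of the other genotype across genes. Namesakes gave correlations of 0.429, 0.0753 and 0.237 for numbers 1 to 3. Each library labelled Mtg16-/- correlated best with its namesake, as did WT replicates 1 and 3. WT replicate 2 correlated best with Mtg16-/- replicate 3 (0.198). These values do not settle whether the numbers pair the mice. As no pairing is stated, the numbers were not treated as one, and the calls depended on that choice. With the replicate block, 1201 of 12268 genes were called, among them 14 Defa rows (13 higher, and Defa4 lower) and 1 Defb row. The block left the log2 difference of the alpha sum at 1.16, the beta sum at 0.78, the difference to other Paneth cell products at 0.23, the share of the Defa20 group at 6.33 points and the median alpha fold change at 1.05.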
